A study of Homo sapiens with 6 samples.

Results

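Transcripts of the linker histone H1 and of the core histones H2A, H2B, H3 and H4 were examined in U87, an established human glioma cell line grown in culture. The genes were chosen by a rule on name and detection, with earlier results of these data known. They were protein-coding genes with an H1, H2AC, H2BC, H3C or H4C symbol (or its older HIST form) that had at least 1 count in at least 3 of the 6 libraries. The choice gave 31 genes of 57905 gene identifiers in the files, with 7 for H1, 6 for H2A, 10 for H2B, 4 for H3 and 4 for H4. Another 7 protein-coding histone genes were under that minimum, 6 of them without a count in any library. In the files used here 37 further histone identifiers had no row and were not analysed here.

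The study asked what changes in gene expression when RBM47, an RNA-binding protein, is depleted. Total RNA was sequenced from 3 control libraries (genotype label WT, treatment label "no") and 3 libraries of cells transfected with 100 pmol of siRNA against RBM47 (label siRBM47). Whether the control cells received the transfection reagent or another siRNA is not said. Nor do they say that the replicates were grown separately, and the p-values then reflect only how much these libraries varied, possibly for technical reasons.

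A nucleosome is a spool of the 4 core histones around which DNA is wound, and H1 binds where the DNA enters and leaves it. Most core histone genes and H1-1 to H1-5 lie in clusters and are transcribed in S phase, when new DNA must be packed. Their messages usually end in a short stem-loop in place of a poly(A) tail, and the stem-loop binding protein SLBP guides their processing. H1-10 lies outside the clusters, has a polyadenylated message and is made independently of replication. Some cluster genes can also give polyadenylated messages that run past the stem-loop, for instance in cells that have stopped dividing.

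The stem-loop itself was readable in the annotated transcripts, and is shown because it bears on which histone messages a library can hold. A match to its letters (GG, any 2 bases, CTT, any base, T, any base, AG, any 2 bases, CC) within 100 bases after the stop codon, on the strand of the transcript, was present in 15 of the 31 genes. Of all 68286 coding transcripts with a 3′ untranslated region of at least that length, 45 (0.0659%) held it. The histone genes were matched without that minimum length and counted by gene, so the shares do not follow the same rule. The genes shared 4 versions of the 16-base element, and 1 gene is given for each, with the element in capitals and 5 flanking bases on each side in lower case.
H2AC6: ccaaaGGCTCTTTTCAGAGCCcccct
H2BC5: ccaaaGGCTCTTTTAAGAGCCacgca
H4C8: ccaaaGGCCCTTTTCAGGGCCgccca
H2AC11: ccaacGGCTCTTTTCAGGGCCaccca
In 11 of these 15 genes, a GENCODE 29 transcript went on for more than 100 bases after the element. The longest run was 1917 bases in H2BC26, and it was 1761 in H2AC11. It was 1128 in H2AC6 and 1655 in H4C8 in transcripts annotated for nonsense-mediated decay, and at most 1114 and 630 in their protein-coding transcripts. H2BC5 has a transcript that ends 39 bases after the element and a longer one without it within the window. H1-10 had no match. For many other genes without a match, H1-2, H2AC20 and H2BC12 among them, the GENCODE 29 model stops at the stop codon and could not hold one. A missing match in these genes does not mean that the element is absent, and the 3′ end of H2BC12 is not shown here. The sources used here do not give whether the RNA was selected for poly(A) tails.

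The promoters of the 3 core histone genes with the highest levels in the libraries labelled siRBM47, and that of H1-10 beside them, were taken from RefSeq (GRCh38.p14), which matched 27 of the 31 genes. Each is the 250 bases before the annotated start, 5′ to 3′ on the strand of the gene. Capitals mark the CCAAT box (CCAAT, or ATTGG on the other strand), the TATA box (TATAAA or TTTATA) and the octamer (ATTTGCAT or ATGCAAAT), which is bound by POU2F1 in H2B promoters. Matches on both strands may overlap and then merge into 1 run of capitals.
H2BC12 (chr6:27146859-27147108, minus strand): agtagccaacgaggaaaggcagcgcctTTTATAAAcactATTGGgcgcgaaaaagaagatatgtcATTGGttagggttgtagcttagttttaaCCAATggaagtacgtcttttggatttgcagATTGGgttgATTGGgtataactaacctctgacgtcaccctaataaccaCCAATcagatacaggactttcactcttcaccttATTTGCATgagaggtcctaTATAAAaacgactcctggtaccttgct
H2BC5 (chr6:26157871-26158120, plus strand): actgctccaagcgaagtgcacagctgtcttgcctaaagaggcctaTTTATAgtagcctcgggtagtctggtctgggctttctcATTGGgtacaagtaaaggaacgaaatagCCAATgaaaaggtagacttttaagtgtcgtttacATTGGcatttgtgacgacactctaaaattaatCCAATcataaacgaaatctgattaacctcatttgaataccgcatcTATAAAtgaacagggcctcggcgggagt
H2AC6 (chr6:26123922-26124171, plus strand): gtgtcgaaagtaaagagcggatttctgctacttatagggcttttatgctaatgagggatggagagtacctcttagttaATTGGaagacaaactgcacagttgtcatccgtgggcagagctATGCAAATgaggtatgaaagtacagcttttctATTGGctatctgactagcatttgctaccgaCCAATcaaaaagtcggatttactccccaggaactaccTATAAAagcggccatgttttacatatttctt
H1-10 (chr3:129316287-129316536, minus strand): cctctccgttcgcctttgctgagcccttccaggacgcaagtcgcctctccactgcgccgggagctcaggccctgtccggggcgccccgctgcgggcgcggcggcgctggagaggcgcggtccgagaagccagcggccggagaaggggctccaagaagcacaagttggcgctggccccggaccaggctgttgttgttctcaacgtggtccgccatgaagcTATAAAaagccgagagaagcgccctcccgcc
H2BC12 held all 3 motifs, as did H2AC6, and H2BC5 held CCAAT and TATA boxes without the octamer. H1-10 held a TATA box and no CCAAT box. Over the 27 promoters, 23 had a CCAAT box, against 32.0% of 35116 RefSeq promoters of the same length. A TATA box was in 19 (10.7% of all promoters) and the octamer in 10 (1.6%), none of these 10 an H1 gene. The H1 box (AAACACA, either strand), an element of replication-dependent H1 genes, was in 5, namely H1-1 to H1-5, and in 4.8% of all promoters. A match is a description of letters, not of a bound site. The window of H2AC6 is also that of its divergent neighbour H2BC4, whose start lies 246 bases away.

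The 6 libraries held 15575297 to 18128549 counts. No fall of RBM47 was detected in siRBM47 (log2 difference -0.11, adjusted p = 0.942, edgeR quasi-likelihood test with Benjamini-Hochberg adjustment), and without control replicate 3 the difference was 0.76, again short of the threshold. Directions are therefore given between the libraries as labelled. Control replicate 3 stood apart: a chi-square comparison of counts gave 144.83 and 117.05 per degree of freedom against control replicates 1 and 2, which gave 10.74 against each other. Among the 19 histone genes tested, it was the highest control in 11 and the lowest in 5, so results are given with and without it. Of 9 glial markers, AQP4 was at 0 in all libraries and GFAP at 0.339 to 1.49 CPM (counts scaled to a common depth, here on TMM-scaled library sizes), while CD44 ran from 596.3 to 902.3 CPM. OLIG2 stood at 5.96, 7.02 and 8.41 CPM in the controls and 3.26, 4.17 and 4.58 CPM after siRBM47, without overlap, at a log2 difference of -0.83 and an adjusted p of 0.19 by edgeR. Of the 6 glial markers tested, 3 were higher and 3 lower, with a median log2 difference of -0.047. Of 13 measured markers of neurons, immune, endothelial and epithelial cells, AIF1 was at 0. These other-cell markers summed to 17.3 to 18.3 CPM in control and 21.6 to 34.5 CPM in siRBM47, most of it the neuronal gene SNAP25. The part of these and of the glial markers in the histone results was not tested. In bulk RNA, fewer cells making a message and less message per cell cannot be told apart.

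The libraries labelled siRBM47 held more message of some core histone genes and less of the linker gene H1-10 than the controls, at overlapping totals. H2BC12, a replication-dependent H2B gene, rose 2.91-fold. The other core genes with the largest differences were H4C8, H2BC5 and H2AC6, from 2.45-fold to 3.70-fold higher without passing the adjusted threshold. H1-10, the most abundant linker histone message in control, was 2.93-fold lower, also short of the threshold. Of the 31 genes, 19 had enough counts to be tested and 1 of these passed at an adjusted p under 0.05 (edgeR quasi-likelihood test, Benjamini-Hochberg over 14578 genes), against 0.22% of all genes tested. DESeq2 called 4 (4.42% of all genes) and edgeR without the count filter 5 (2.97%). At an unadjusted p under 0.05 there were 4 higher and 2 lower histone genes, where the background was 7.15% and 8.94% of all genes. Control and siRBM47 values did not overlap for 7 genes that were higher and 3 that were lower, against 11.6% and 11% of all genes.

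By sign, 13 of the 19 tested genes were higher and 6 lower, with a median log2 difference of 0.28 against -0.01 over all genes tested. A gene can pass the count filter through the group where it is high, so the same is given for all 31 genes without the filter: 19 were higher and the median was 0.30. The classes are given in turn, and the difference between them was not tested. All 7 tested H2B genes were higher (median 0.80), as were 3 of 5 H2A genes (median 0.12) and the single H3 and H4 genes tested. Of the H2B genes, H2BC4, H2BC15, H2BC18 and H2BC21 overlapped between groups. H2BC18 turned to -0.046 with limma-voom, and H2BC15 and H2BC18 changed sign when single libraries were left out. Of the 4 tested H1 genes described singly, 3 were lower. Fitted without the filter, the untested H1-1 (0.64) and H1-3 (0.76) were both higher at few counts, so no direction is given for this class. Over the core histones together, 12 of 14 tested genes were higher, with a median of 0.55. Without the filter 16 of all 24 core genes were higher, and their median was 0.32. By class these were 9 of 10 H2B genes, H2BC12L with its few counts among them, and 2 of 4 H4 genes. The medians of H2A (3 of 6 higher, -0.036) and H3 (2 of 4 higher, -0.29) turned negative without the filter, so a direction for these classes depended on it.

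**Figure D1:**
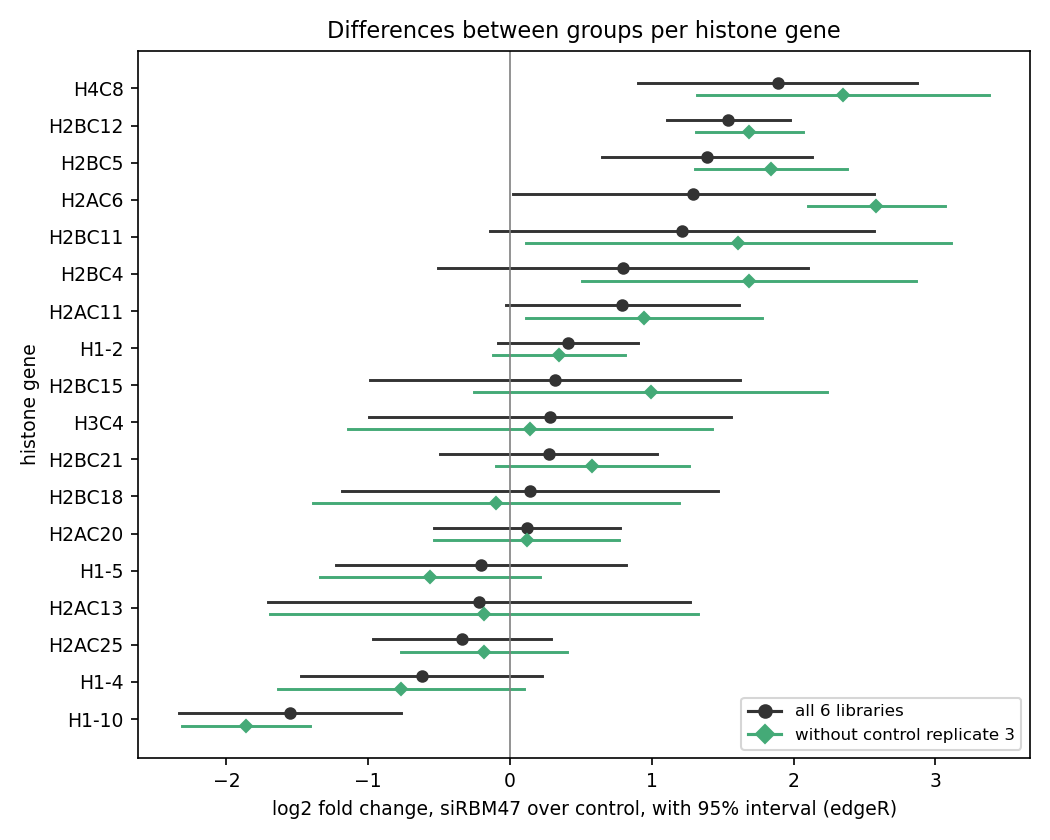
Log2 fold change of siRBM47 over control for 18 of the 19 tested histone genes (x axis; genes in order of the value on the y axis), with 95% intervals from the edgeR quasi-likelihood fit. Black circles use all 6 libraries and green diamonds leave out control replicate 3. H4C8 (1.89), H2BC12 (1.54) and H2BC5 (1.39) lead, H1-10 (-1.55) is lowest, and the interval of H2AC6 is narrower without that library.

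H1-10 (chromosome 3, 129314771 to 129316277, minus strand, GRCh38) is an H1 variant made independently of replication. It had 134.7, 111.9 and 51.9 CPM in controls 1, 2 and 3 and 24.3, 43.2 and 34.2 CPM in the siRBM47 libraries. Values follow the order of the replicate numbers here and below. Every siRBM47 library was below every control library, and control replicate 3 was nearer to siRBM47 than to the other controls. The means were 99.5 ± 42.8 and 33.9 ± 9.45 CPM (SD, n = 3). On the log2 scale H1-10 differed by -1.55 (SE 0.35, adjusted p = 0.0966, edgeR quasi-likelihood test). Without control replicate 3 it was -1.86 (SE 0.21) and passed the threshold, where 11.3% of all genes were called lower. It also passed with DESeq2 and without the count filter, and its adjusted p over 13 alternatives ran from 6.28e-08 to 0.35. The library kit does not mark strand, and 22.9% of the exon length of H1-10 lies opposite the antisense gene H1-10-AS1. Reads in that stretch cannot be assigned by strand. H1-10-AS1 itself was at 0.373 to 1.67 CPM across the 6 libraries, far under H1-10.

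The clustered H1 genes were few in counts beside H1-10 and mixed in direction. H1-2, the most abundant of them, was at 8.73, 7.31 and 6.97 CPM in control and 10.1, 10.4 and 10.1 CPM in siRBM47, with no overlap. It differed by 0.41 (SE 0.22) on the log2 scale, at an adjusted p of 0.40 by edgeR. Of the 4 tested H1 genes described here it alone had a positive difference. H1-4 averaged 1.76 ± 0.37 CPM over the controls and 1.14 ± 0.16 CPM over the siRBM47 libraries (SD, n = 3), also without overlap. H1-5 was at 1.89 ± 0.93 and 1.63 ± 0.21 CPM, with overlap, and its sign turned without control replicate 1.

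**Figure D2:**
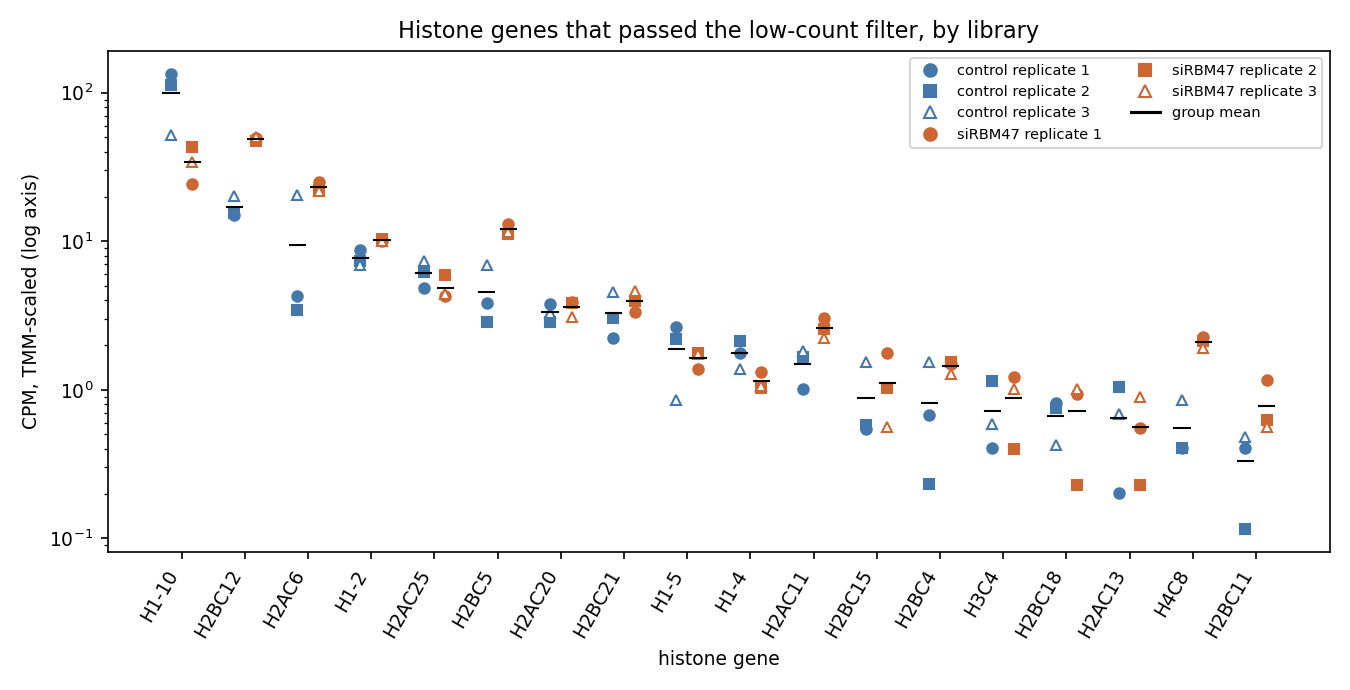
CPM (TMM-scaled, log axis) of 18 tested histone genes in each library, ordered by control mean. Blue marks control and orange siRBM47, the shape gives the replicate and the bar is the group mean. H2AC6 in control replicate 3 (20.4 CPM) lies near the siRBM47 libraries, while H2BC12 is separated from control in each siRBM47 library.

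Among the H2B genes H2BC12 (chromosome 6, 27146418 to 27146798, minus strand) had both the highest level and the clearest difference. The control libraries had 15.1, 15.4 and 20.1 CPM and those labelled siRBM47 had 49.6, 47.7 and 50.2 CPM. The siRBM47 libraries lay close together and the highest control was well under the lowest of them. From 16.9 ± 2.81 to 49.1 ± 1.31 CPM (SD, n = 3), it rose by 1.54 on the log2 scale, with an SE of 0.19 and a 95% interval from 1.11 to 1.97 (edgeR quasi-likelihood test, adjusted p = 0.0168). The call was lost when control replicate 1 or 2, or any 1 siRBM47 library, was left out (adjusted p from 0.0568 to 0.183), with log2 differences from 1.48 to 1.58. Without control replicate 3 the call was kept, at 1.69 on the log2 scale, where 10.1% of all genes were called higher. Of the 50-base words in its coding sequence, 74.1% occur in another gene, in 11 other genes in all. How reads that match several genes were counted is not given in the sources used here, which leaves its level uncertain.

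H2BC5 (chromosome 6, 26158146 to 26171349, plus strand) was at 3.86, 2.88 and 6.97 CPM in control and 13.2, 11.3 and 11.6 CPM in siRBM47. Control replicate 3 was above the other controls and below all siRBM47 libraries. Its log2 difference was 1.39 (SE 0.33, adjusted p = 0.106, edgeR quasi-likelihood test). Without control replicate 3 it was 1.84 (SE 0.25) and passed, where 10.1% of all genes were called higher. It also passed with DESeq2 and without the count filter, with adjusted p from 0.000303 to 0.35 over 13 alternatives. Only 13.3% of its coding words were shared with other genes.

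H2BC4 and H2AC6 start 246 bases apart on opposite strands and so have the promoter printed above in common. H2AC6 (chromosome 6, 26124145 to 26139116, plus strand), the most abundant H2A gene of the chromosome 6 cluster, was at 4.27, 3.45 and 20.4 CPM in control and 25.2, 22.2 and 21.9 CPM in siRBM47. H2BC4 was at 0.677, 0.230 and 1.54 CPM in control and 1.49, 1.54 and 1.29 CPM in siRBM47. In both genes control replicate 3 was at or near the siRBM47 level, with the other controls far below. The exact Poisson 95% interval of H2AC6 in control replicate 3, 18.4 to 22.5 CPM, lay above those of control replicates 1 (3.28 to 5.46) and 2 (2.63 to 4.45), so counting error does not span the gap.

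With all libraries, H2AC6 differed by 1.29 on the log2 scale (SE 0.57, adjusted p = 0.303, edgeR quasi-likelihood test) and H2BC4 by 0.80 (SE 0.58, adjusted p = 0.537, edgeR). Leaving out control replicate 3 moved these to 2.58 (SE 0.23) and 1.69 (SE 0.55). Both passed there, where 10.1% of all genes were called higher. Over the alternatives the adjusted p ran from 1.03e-05 to 0.61 for H2AC6 and from 0.0418 to 0.872 for H2BC4. The size of the difference at this pair thus rested on 1 library.

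A second divergent pair, H2AC11 and H2BC11, whose starts lie 248 bases apart, was higher in each siRBM47 library than in any control. H2AC11 was at 1.02, 1.67 and 1.81 CPM in the controls and 3.04, 2.57 and 2.23 CPM in siRBM47. H2BC11 averaged 0.333 ± 0.193 and 0.782 ± 0.329 CPM in the groups (SD, n = 3). Its counts were few, at 6, 2 and 9 in control and 21, 11 and 10 in siRBM47. Neither gene of the pair passed the threshold (adjusted p = 0.326 and 0.365, edgeR). The pair H2AC20 and H2BC21 on chromosome 1, 236 bases apart, showed smaller differences with overlap: H2AC20 was at 3.32 ± 0.46 and 3.61 ± 0.47 CPM and H2BC21 at 3.27 ± 1.16 and 3.97 ± 0.66 CPM. Other pairs did not rise together. H2AC13 and H2BC13, 244 bases apart, were both lower, at log2 differences of -0.22 and, without the filter, -1.74. H2AC25 and H2BC26, 230 bases apart, were split at -0.34 and, without the filter, 1.21. H2BC13 and H2BC26 had few counts and were not tested.

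The remaining tested H2A and H2B genes overlapped between groups. H2AC25 averaged 6.14 ± 1.30 CPM over the controls and 4.87 ± 0.88 CPM over the siRBM47 libraries, and H2AC13 at 0.644 ± 0.418 and 0.558 ± 0.333 (SD, n = 3); these were the H2A genes with negative differences. H2BC15 was at 0.887 ± 0.569 and 1.12 ± 0.61 CPM and H2BC18 at 0.662 ± 0.207 and 0.724 ± 0.431 CPM. The differences of H2AC13, H2BC15 and H2BC18 changed sign when single libraries were left out.

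H3 and H4 messages were scarce, and 1 gene of each was tested. H4C8 (chromosome 6, 26277609 to 26285638, minus strand) was at 0.406, 0.403 and 0.852 CPM in control, from 6, 7 and 16 counts, and at 2.26, 2.11 and 1.90 CPM in siRBM47, from 41, 37 and 34 counts. All siRBM47 libraries were above all controls. The log2 difference of 1.89 (SE 0.44, adjusted p = 0.102, edgeR quasi-likelihood test) was the largest among the tested histone genes. It was 2.35 (SE 0.48) without control replicate 3 and passed there, where 10.1% of all genes were called higher. H4C8 also passed with DESeq2 and without the count filter (adjusted p from 0.00404 to 0.34 over 12 alternatives). No 50-base word of its coding sequence was found in another gene. H3C4 averaged 0.714 ± 0.389 CPM over the controls and 0.874 ± 0.423 CPM over the siRBM47 libraries, with overlap, and shares its whole exon length with an unnamed gene on the same strand.

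The 12 genes that were not tested had at most 21 counts in any library. The best covered were H4C11 and H3C12 with 53 counts each over the 6 libraries, H1-3 with 51, H4C3 with 42 and H4C16 with 40. Fitted without the filter, 6 of the 12 were higher and 6 lower, and the smallest unadjusted p was 0.053 (edgeR). That value belonged to H2BC12L, a copy of the H2B coding sequence on chromosome 21, which had 0 counts in control and 3, 1 and 3 in siRBM47. All of its 50-base coding words occur in other genes, and at 3 counts or fewer per library no fold is given.

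Sums were taken over 30 of the 31 genes, 6 of them linker genes. Histone message came to 191.4, 166.3 and 134.2 CPM in the controls and 152.7, 163.0 and 155.8 CPM in siRBM47. The totals overlapped, at 164.0 ± 28.6 and 157.2 ± 5.31 CPM (SD, n = 3). The make-up differed more than the total. The linker genes summed to 148.6, 123.9 and 61.3 CPM in control and 38.3, 56.9 and 47.7 CPM in siRBM47, without overlap, and most of this was H1-10. The clustered H1 genes were mixed in direction, so the difference is given for H1-10 and not for the class. Core genes summed to 42.8, 42.4 and 72.9 CPM in control and 114.4, 106.2 and 108.1 CPM in siRBM47, a ratio of means of 2.08. Without H2BC12 the core sum was 27.7, 26.9 and 52.8 CPM in control and 64.8, 58.5 and 58.0 CPM in siRBM47, again without overlap.

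Control replicate 3 had the lowest linker sum and the highest core sum of the controls. H1-10 made up 70.4%, 67.3% and 38.7% of these histone counts in control replicates 1, 2 and 3 and 15.9%, 26.5% and 22.0% in siRBM47. H2BC12 made up 32.5%, 29.2% and 32.2% in siRBM47 and less in each control (7.89% in replicate 1 and 9.28% in replicate 2, with replicate 3 the highest). By class the H2B sum went from 27.8 ± 7.26 to 69.7 ± 2.65 CPM and the H2A sum from 21.3 ± 10.6 to 34.9 ± 2.22 CPM, while H3 was at 1.68 ± 0.16 and 1.66 ± 0.46 CPM. No test was made of sums over the genes, which were chosen as a family.

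**Figure D3:**
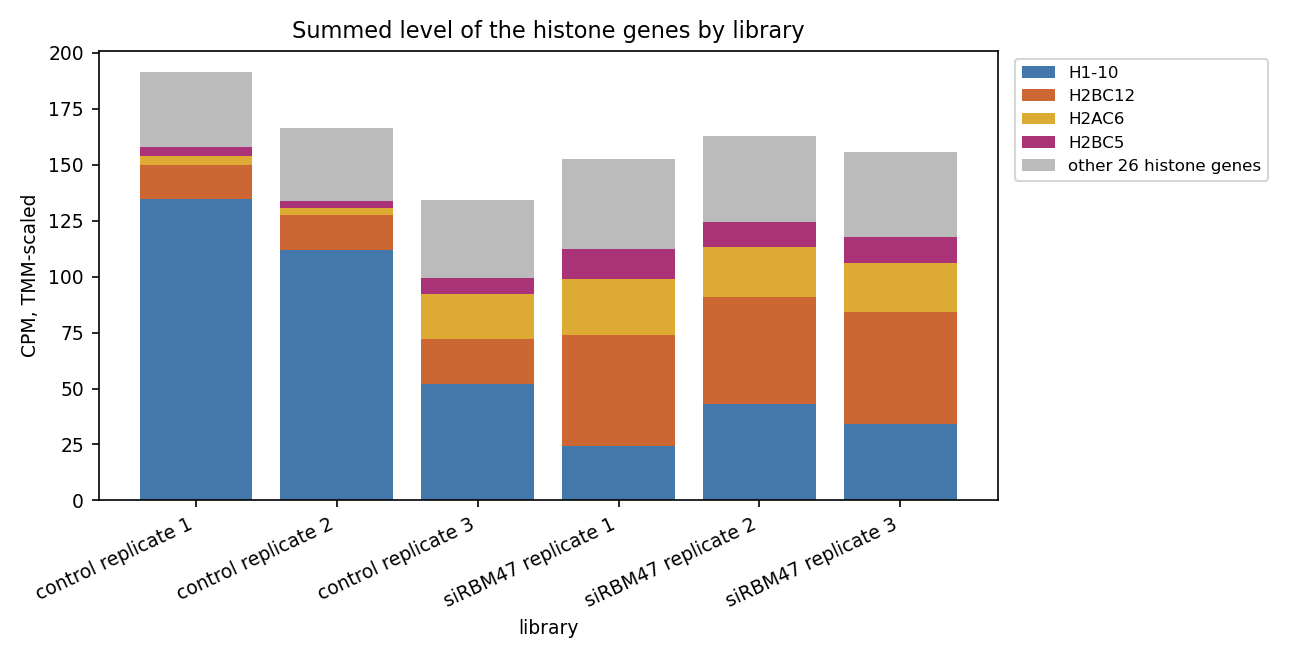
Summed level of 30 histone genes in each library (TMM-scaled CPM, bars from 0), split into H1-10, H2BC12, H2AC6, H2BC5 and the other 26. The bars run from 134.2 to 191.4 CPM, with H1-10 the largest single gene of each control bar and H2BC12 that of each siRBM47 bar.

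Per length, on the FPKM scale of the files (fragments scaled by gene length and by depth), the order of the genes changed at the top. Of the genes described here, H1-10 led in control at 65.4 ± 28.3 FPKM, above H2BC12 at 20.3 ± 3.27, H2AC25 at 12.2 ± 2.53, H1-2 at 10.4 ± 1.30 and H2AC20 at 7.52 ± 1.04 (SD, n = 3). H2AC25 and H1-2 overlapped between libraries. H1-10 was above H2BC12, H2BC12 above H2AC25 and H1-2 above H2AC20 in all control libraries. H2AC6 (5.53 ± 5.61) and H2BC5 (5.02 ± 2.32) came next, and each of the other genes was at 2.37 FPKM or less.

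In siRBM47 H2BC12 stood first at 59.6 ± 2.07 FPKM, above H1-10 (22.4 ± 6.07) in all libraries. H1-10 was in turn above H1-2 (13.8 ± 0.14), H2AC6 (13.8 ± 1.14) and H2BC5 (13.3 ± 1.19), which overlapped with each other. H4C8 moved from place 20 among the 31 genes in control to place 10, at 0.528 ± 0.243 and 2.01 ± 0.18 FPKM. The length behind these values is the authors'. For H2BC12 the ratio of count to FPKM gives about 820 bases, against 381 in GENCODE 29, so a level based on the shorter model would be higher.

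**Figure D4:**
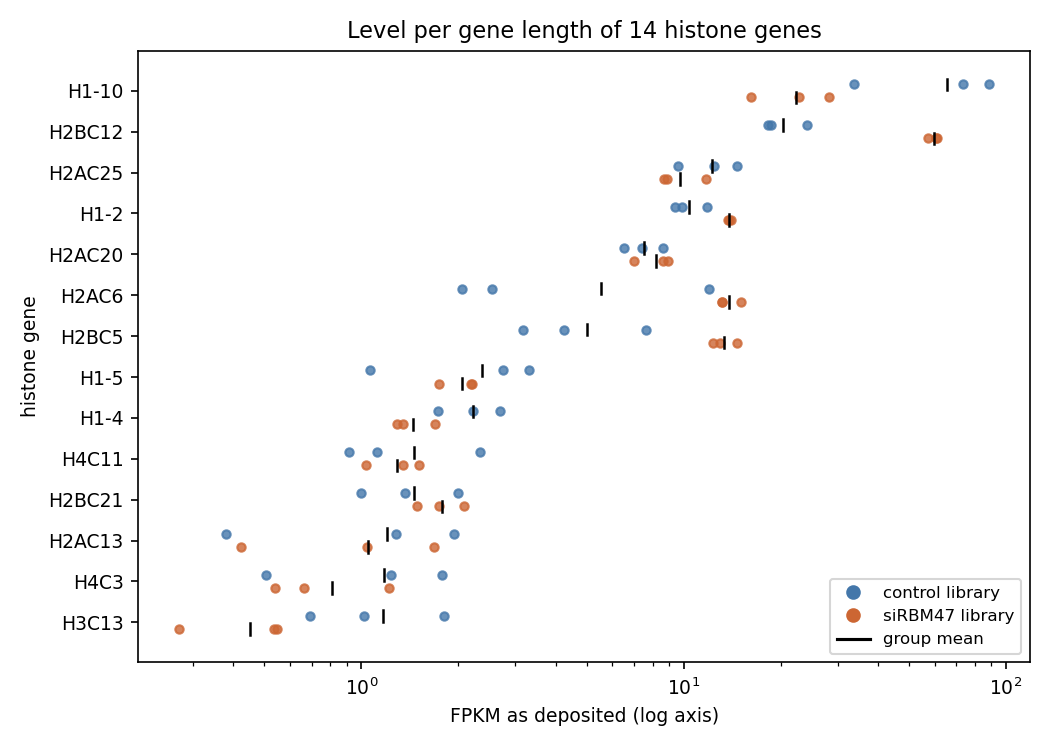
FPKM as deposited (log axis) of 14 histone genes with high control means, with 1 point per library (blue control, orange siRBM47) and bars at the group means. H1-10 is first in control at 65.4 FPKM and H2BC12 first in siRBM47 at 59.6 FPKM.

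The genes were also compared by place. Of 13 tested genes of the chromosome 6 cluster, 10 were higher (median 0.79). The 4 core genes at an unadjusted p under 0.05 (edgeR) all lie in it, as do most of the tested core genes. The 3 tested genes of the chromosome 1 group that includes H2BC21 were all higher, at a median of 0.14. Without the filter 3 of the 6 genes of that group were higher and the median was -0.37, so the direction turned, while 13 of all 19 genes of the chromosome 6 cluster were higher (median 0.42). On the other part of chromosome 1, H2AC25 was at -0.34 and H2BC26 was not tested, and without the filter their median was 0.44. H1-10, outside the clusters, was lower. Place and class coincide in part here, and the difference between places was not tested.

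Genes that make, use or destroy histone messages are described next, with 0 members of the following lists passing by edgeR on the filtered genes of all 6 libraries. Of 15 genes for histone transcription and pre-mRNA processing (such as NPAT, SLBP and LSM11), 7 were higher and 8 lower, with a median of -0.06 and 0 at an unadjusted p under 0.05. DESeq2 and limma-voom called 0 as well, and edgeR without control replicate 3 called 1 lower, where 11.3% of all genes were called lower. The smallest p-values belonged to SYMPK, a scaffold of the 3′ end cleavage complex (85.2, 82.1 and 73.6 CPM in control, 58.9, 77.2 and 62.9 in siRBM47), to the cap-binding NCBP1 (55.8 ± 4.61 and 66.7 ± 6.53) and to LSM11, part of the U7 particle (13.1 ± 2.60 and 10.6 ± 0.76). Of 8 genes of histone mRNA decay, 3 were higher and 5 lower (median -0.06), with 0 at an unadjusted p under 0.05 and 0 called by DESeq2 or limma-voom. The helicase UPF1 led at 77.6 ± 6.90 and 61.0 ± 8.99 CPM, before the uridyltransferases TUT7 (31.2 ± 5.35 and 26.9 ± 7.29) and TUT4 (15.9 ± 3.81 and 14.1 ± 0.41).

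Histone variants made independently of replication can replace the core histones outside S phase. Of 8 tested, 5 were higher and 3 lower (median 0.09), with 1 at an unadjusted p under 0.05 by edgeR, 1 called by DESeq2 and 0 by limma-voom. H2AJ, an H2A variant that gathers in senescent cells, averaged 20.6 ± 5.30 CPM over the controls and 11.4 ± 0.94 CPM over siRBM47 (SD, n = 3), without overlap. Its log2 difference was -0.85 (SE 0.25, adjusted p = 0.146, edgeR), and without control replicate 3 it was -1.05 and passed, where 11.3% of all genes were called lower. The centromeric CENPA was at 41.0 ± 6.56 and 32.1 ± 3.61 CPM, and H3-3A, which encodes the replacement histone H3.3, at 298.2 ± 60.1 and 354.4 ± 20.9 CPM.

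Of 18 chaperone genes, whose products carry histones to and from DNA, 8 were higher and 10 lower (median -0.09), with 1 at an unadjusted p under 0.05 and 0 called by DESeq2 or limma-voom. HJURP, the chaperone of CENPA, was at 235.9, 219.6 and 87.8 CPM in control and 107.9, 110.9 and 91.8 CPM in siRBM47, so that control replicate 3 was below the siRBM47 libraries and the groups overlapped. Without that library 4 of the 18 genes were called lower, HJURP among them, against 11.3% of all genes in that fit. Without the count filter edgeR called 1 of the 18, HJURP at -0.80, against 2.97% of all genes. CABIN1 was at 67.9 ± 3.43 and 54.8 ± 6.86 CPM and SSRP1 at 236.6, 288.4 and 226.1 CPM in control and 156.8, 211.1 and 232.2 CPM in siRBM47.

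S phase and DNA replication genes are the usual companions of histone message. Of 24 tested, 7 were higher and 17 lower (median -0.11), with 2 at an unadjusted p under 0.05 and 0 called by DESeq2 or limma-voom. The kinase gene CDK2 was at 77.9 ± 6.61 and 57.0 ± 6.55 CPM, the transcription factor E2F1 at 146.1 ± 56.9 and 88.2 ± 11.4 CPM, and the licensing factor CDT1 at 65.2 ± 33.2 and 39.6 ± 7.85 CPM. Their summed level was 3865, 3987 and 2169 CPM in control replicates 1, 2 and 3 and 2911, 3016 and 3073 CPM in siRBM47. Control replicate 3 was the lowest of all 6 libraries in 19 of the 24 genes. Without it the median was -0.38 and 10 of the genes were called lower, while 5 core histone genes were called higher, against 11.3% and 10.1% of all genes in that fit. Without control replicate 1 or 2 the median turned to 0.025 and 0.0094, so its sign rested on single control libraries. Whether the share of cells in S phase had a part in the histone results was not tested.

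Other RNAs without a poly(A) tail were low except for SNORD3A in 1 library. Of 12 listed, 6 were found and 1, SNORA73B, was tested, at 0.745, 0.691 and 0.160 CPM in control and 0.608, 0.800 and 0 CPM in siRBM47. The sum of the 6 was 1.35, 1.32 and 6.44 CPM in control and 1.27, 1.14 and 0.223 CPM in siRBM47. The high value in control replicate 3 was SNORD3A alone (5.91 CPM, from 111 counts), which had 2 and 7 counts in the other controls and 3, 3 and 2 in siRBM47. It was left out by the count filter, and edgeR without the filter called it lower at -3.78, a difference that rests on that library. The part of such RNA in the histone values was not tested.

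**Figure D5:**
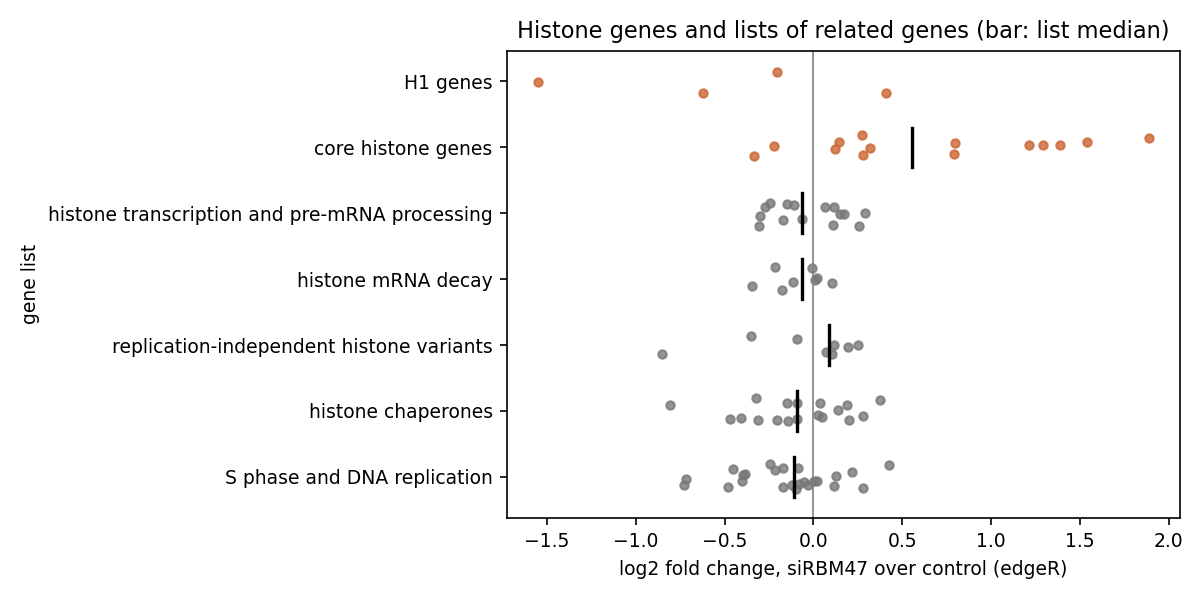
Log2 fold change of siRBM47 over control (edgeR, all 6 libraries) for each tested gene of the linker and core histones (orange) and of 5 lists of related genes (grey), with a bar at each median. Core histones have a median of 0.55 (0.32 over all 24 core genes without the count filter, not drawn), 3 of the 4 H1 genes plotted are below 0 (no bar is drawn for them), and the related lists have medians from -0.11 to 0.09. The untested H1-1 and H1-3, not drawn, were above 0 without the count filter.

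Near-identical copies limit how far single genes can be told apart. Of the 31 genes, 10 shared no 50-base word of coding sequence with another gene, among them H4C8, H1-2 and the other clustered H1 genes, while 9 shared more than 50% of theirs. H2AC6 shared 2.0%, H2BC4 15.7% and H2BC21 52.4%. Higher siRBM47 values without overlap occurred in H2BC12, which shared 74.1% of 50-base words, 50.5% of 75-base words and 28.4% of 100-base words. They also occurred in H2BC5, H2AC6 and H4C8, which shared 13.3%, 2.0% and 0.0% of 50-base words. The words cover coding sequence only, and the part of shared reads in these differences was not tested.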

How the data were processed

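RNA-seq of 6 U87 libraries used a kit without strand marking, per the labels' protocols. The authors used HISAT2 2.0.5 to align and featureCounts 1.5.0-p3 to count on hg38 (per the submitters' processing notes). Annotation release, strand setting, poly(A) selection, read length and the handling of reads with several matches: not given in the sources used here. Raw counts per gene and FPKM values stand side by side in the deposited tables, per the file headers. FPKM served for levels per length only.

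A table of gene identifiers supplied the symbols (5909 identifiers had none). Positions and transcripts are from GENCODE 29 on GRCh38, which lacks 5567 of the identifiers. The histone genes and all lists were chosen with earlier results of these data known. One histone gene is counted with the family but not reported here by itself, and was left out of sums and plots. Of 117 list and marker genes, 13 were not found by symbol.

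Genes passing filterByExpr (minimum count 10; 14578 genes) were tested with edgeR 4.0.16 under R 4.3.3 (quasi-likelihood, TMM factors, no block), with Benjamini-Hochberg adjustment over all of them and a threshold of 0.05. Each SE was the size of the log2 difference divided by the root of the F statistic. RLE and upper-quartile factors, DESeq2 1.42.0, limma-voom (limma 3.58.1), no filter, a stricter minimum of 50 counts, a replicate block and leaving out each library were tried as alternatives. Poisson intervals cover counting error only. Tested histone genes at an unadjusted p under 0.05 were named with their value in each library, other tested ones by group means or more, with the 5 best covered untested ones and up to 3 genes per list by smallest p. Values per library for H2BC4, H2AC11, H2BC11 and H1-2, and H2BC12L, H2BC13 and H2BC26, were added after the values were seen. No library repeated another (chi-square per degree of freedom of at least 10.74).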

Additional observations from a re-analysis of the deposited data

How the results depend on the processing

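Scaling by RLE or upper-quartile factors and limma-voom kept 1 histone call, as did a minimum count of 50 (on 9 histone genes). DESeq2 called 4 histone genes of 644 genes in all, and the fit without a count filter called 5 of 804. Leaving out 1 library gave 0 to 6 histone calls and 0 to 3117 calls in all, the upper values without control replicate 3 and 0 histone calls without any other library. Those 3117 calls were 21.4% of all genes tested. Without a single siRBM47 library edgeR called 0 genes, with 1789, 1816 and 1445 at an unadjusted p under 0.05 without replicates 1, 2 and 3. The median of the tested histone genes ran from 0.06 (without siRBM47 replicate 1) to 0.41. Signs turned for weakly measured genes when 1 library was left out: H1-5 ran from -0.56 to 0.11, H2BC15 from -0.18 to 0.99, H3C4 from -0.030 to 0.81, H2BC18 from -0.16 to 0.57, H2AC13 from -0.73 to 0.29 and RBM47 from -0.39 to 0.76. With limma-voom H2BC18 was at -0.046 and RBM47 at 0.098. The causes were not tested.

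With a replicate block edgeR called 1 histone gene and 39 genes in all, and RBM47 was at 0.12. Deviations of same-numbered libraries from their group means correlated at -0.036, 0.127 and 0.116. With 3 libraries per group, and control replicate 3 apart, such values cannot decide whether the samples were paired. The sums over the whole family kept their values within the replicate SD under RLE factors and plain totals, and all 31 genes kept their place by counts per length. At word lengths of 75 and 100 bases, 8 and 6 genes had more than 50% of their coding words shared. Low counts limited the H3 and H4 genes most.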
